A study of Homo sapiens with 18 samples.

Results

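The genes described here are 10 members of the BCL2 family, which decides whether a stressed cell keeps or loses its mitochondria: BCL2, BCL2L1, MCL1, BAX, BAK1, BCL2L11, BBC3, PMAIP1, BMF and BID. They were picked by symbol, with no threshold on their values but with earlier results of these data known, from 18417 genes measured on whole-transcript arrays, and each of the 10 had 1 probe set of its own. RNA came from H295R, an established human adrenocortical carcinoma line that makes steroids, carrying a stable, non-inducible pcDNA4 vector that either encoded GRα, the ligand-binding glucocorticoid receptor isoform, or was empty (control cells). The 6 groups were GRα cells given dexamethasone at 100 nM (a glucocorticoid agonist, 3 arrays), RU486 at 100 nM (mifepristone, a receptor antagonist with partial agonist activity, 2 arrays) or ethanol vehicle (3 arrays), and control cells given the same 3 treatments (3 arrays each). All were grown with Zeocin, kept free of serum for 24 h from 70% confluence and treated for 6 h. Each vector is represented by 1 stable line, so the receptor and anything else that separates these lines cannot be told apart.

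Apoptosis through mitochondria turns on the balance within this family. The survival proteins BCL2, BCL-XL (from BCL2L1) and MCL1 hold the pore formers BAX and BAK (from BAK1) in check, and the BH3-only proteins, which include BIM (from BCL2L11), PUMA (from BBC3), NOXA (from PMAIP1), BMF and BID, release that hold or act on the pore formers directly. Glucocorticoids kill lymphoid cells in part by raising BIM, whereas in some epithelial and liver cells they raise BCL-XL.

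The values are log2 signals, and a gene was called changed at a limma p under 0.05 after Benjamini-Hochberg adjustment over all 18417 genes. The labels call replicates A, B and C biological without saying whether each was a culture of its own, and the p-values speak only for the spread among these arrays, which may be technical. The arrays measure RNA, 1 probe set per gene sums the isoforms under it, including the long and short forms of BCL2L1 that act in opposite ways, and levels of different genes cannot be compared. In these bulk samples fewer cells with an RNA and less of it per cell cannot be told apart.

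The targeted gene went with the labels. NR3C1, the glucocorticoid receptor gene, was higher in GRα than in control cells in vehicle (log2 fold change 0.59), under dexamethasone (0.71) and under RU486 (0.61), all called. Dexamethasone raised the receptor target ZBTB16 5.63-fold in GRα cells and 2.67-fold in control cells, and it was called in both. PER1, another target, was also called in both (2.53-fold and 1.93-fold). The target TSC22D3 was called in GRα cells (1.58-fold) but not in control cells (1.19-fold, limma adjusted p = 0.995). TSC22D3 was also called lower in GRα than in control cells in vehicle (log2 fold change -0.65) and under RU486 (-0.60), but not under dexamethasone (-0.24). The 11 adrenocortical markers averaged 7.60 to 7.75 over the GRα arrays and 7.94 to 8.11 over the control arrays. Lists for other cells averaged 4.71 to 5.00 in GRα and 4.70 to 4.92 in control arrays for leukocytes (4 genes), 5.15 to 5.36 and 5.03 to 5.29 for endothelium (4 genes), and 5.51 to 5.70 and 5.40 to 5.53 for fibroblasts (6 genes). The 3 epithelial markers averaged 7.11 to 7.48 in GRα and 6.80 to 7.02 in control arrays, with 1 of 3 called higher in vehicle. The 5 chromaffin markers averaged 6.52 to 6.80 and 5.84 to 5.96, with 2 of 5 called higher in vehicle, among them CHGB, and a median log2 fold change of 0.15. Of the adrenocortical markers 1 was called higher and 6 lower in vehicle, or 1 and 4 without GRα vehicle replicate B. In vehicle 2 of 6 fibroblast and 2 of 4 endothelial markers were called higher (2 and 1 without that replicate), and 0 of 4 leukocyte markers were called. These counts stand against 33.4% of all genes called in vehicle (15% higher, 18.3% lower), or 34.2% without that replicate. The part of these marker differences in the results on family members was not tested. GRα vehicle replicate B stood apart: it had the lowest array weight (0.194) and lay outside the range of the other 7 GRα arrays for 50.6% of all genes and for 8 of the 10 family members. Leaving it out changed the call of 1 member, BAK1 between the lines in vehicle, and moved or turned a number of differences that were not called, some of which are given both ways. Without it, dexamethasone and RU486 against vehicle in GRα cells still called 2 and 0 members.

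Dexamethasone raised a survival gene and a death gene together in GRα cells, BCL2L1 and BCL2L11, and changed none of the other 8 members past the threshold. These 2 of 10 compare with 2.02% of all genes called in that comparison (1.36% higher, 0.662% lower). In control cells none of the 10 members was called for dexamethasone, where 0.261% of all genes were called and 2 members had an unadjusted limma p under 0.05. For RU486 no member and no gene passed the threshold in either line (0% called), with 1 member at an unadjusted limma p under 0.05 in GRα cells and 0 in control cells. A test of whether RU486 acted differently in GRα and control cells gave 0 members at an adjusted or unadjusted p under 0.05 and 0% of all genes.

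More members were called between the lines than for any ligand. In vehicle 3 of 10 were called, BCL2L1 and BID higher and BCL2 lower in GRα cells, against 33.4% of all genes (15% higher, 18.3% lower), so this share is near the background. The median log2 fold change of the 10 members in vehicle was 0.11, against 0.01 over all genes. Under dexamethasone 6 of 10 were called against 33.3% of all genes (15.7% higher, 17.6% lower), with BCL2L1, BCL2L11, BMF and BID higher and BCL2 and BAK1 lower. Under RU486 6 of 10 were called against 29.2% (13.1% higher, 16.2% lower), with BCL2L1, BCL2L11, PMAIP1 and BID higher and BCL2 and BAK1 lower. The counts under the ligands rest in part on weak calls, and under RU486 the count fell to 2 when GRα RU486 replicate B was left out. Over all arrays the lines did not overlap for 3 of 10 members (BCL2L1, BCL2 and BID), against 22.4% of all genes, and without GRα vehicle replicate B for 4 of 10, with BAK1 added, against 27%. The ligand comparisons of a line share its vehicle arrays, and line and ligand comparisons share arrays too, so these counts are not independent of each other.

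**Figure D1:**
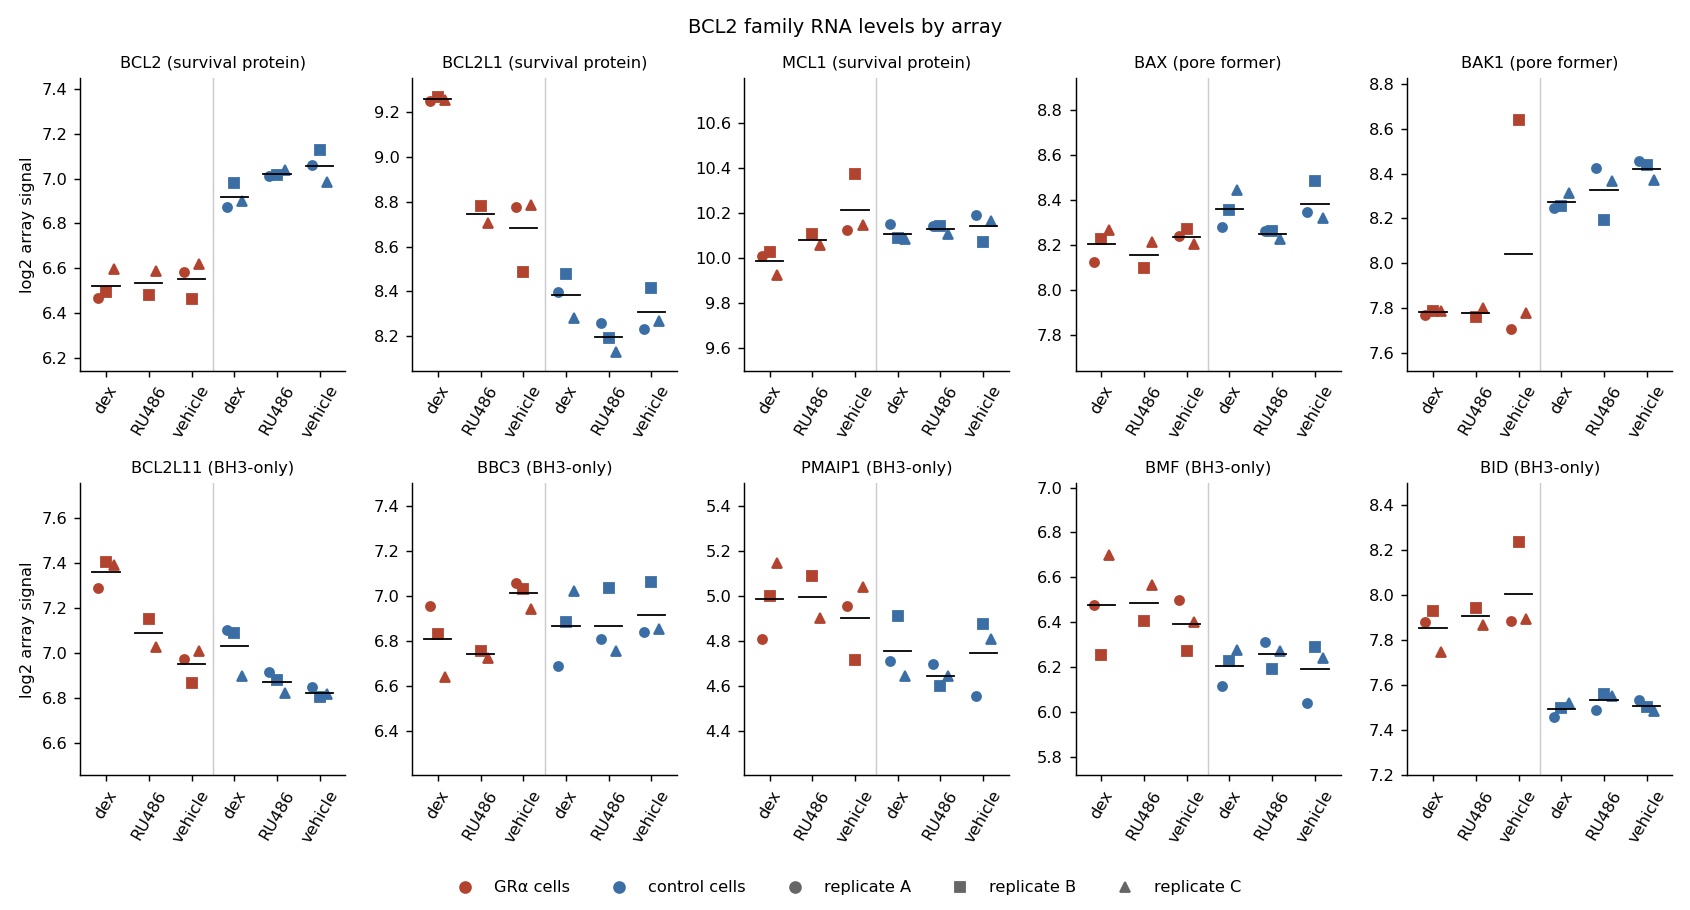
Log2 array signal (y axis) of the 10 genes in every array, by treatment (x axis), with GRα cells in red left of the grey line and control cells in blue right of it; symbols are replicates A, B and C and bars are group means. BCL2L1 and BCL2L11 stand highest in GRα cells with dexamethasone, BCL2 is lower and BID higher in all GRα arrays than in any control array, and GRα vehicle replicate B stands apart for BAK1 (8.64).

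Among the survival genes, BCL2L1 separated the lines and responded to dexamethasone. Its log2 signal was 9.25, 9.26 and 9.25 in GRα cells with dexamethasone, 8.78 and 8.71 with RU486 (replicates B and C) and 8.78, 8.49 and 8.78 in vehicle. In control cells it was 8.40, 8.48 and 8.28 with dexamethasone, 8.26, 8.19 and 8.13 with RU486 and 8.23, 8.42 and 8.27 in vehicle. All 3 GRα dexamethasone arrays lay above every other array of the series, the GRα RU486 and vehicle arrays overlapped with each other, and every GRα array lay above every control array. Between the control groups, neighbours in the order dexamethasone, vehicle and RU486 overlapped.

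BCL2L1 rose 1.49-fold with dexamethasone in GRα cells, to 9.26 ± 0.01 against 8.68 ± 0.17 in vehicle (SD, n = 3 each; log2 fold change 0.57 ± 0.08 SE, limma adjusted p = 0.000529). Only 0.472% of all genes moved further in that comparison. The call held when each of the 6 arrays compared was left out in turn, with adjusted p up to 0.00402, and without GRα vehicle replicate B the log2 fold change was 0.48. Dexamethasone also stood above RU486 in GRα cells by 0.51 ± 0.09 (1.43-fold, limma adjusted p = 0.00698), the only member called of 10, where 0.896% of all genes were called. That call was lost without GRα RU486 replicate B (adjusted p = 0.0574) or C (adjusted p = 0.13).

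In control cells the same comparisons gave smaller values for BCL2L1. Dexamethasone minus vehicle was 0.08 (95% interval -0.09 to 0.25), and dexamethasone minus RU486 was 0.19 ± 0.08 SE (limma adjusted p = 0.743, unadjusted 0.0309). The comparison with RU486 in control cells had 0 of 10 members called, 2 with an unadjusted limma p under 0.05, and 0.364% of all genes called. The difference between the lines in the dexamethasone response was 0.49 ± 0.11 SE and was not called over all genes (limma adjusted p = 0.201, unadjusted 0.000468). In that test 0 members were called, 2 had an unadjusted p under 0.05, and 0.0652% of all genes were called. A larger BCL2L1 response in GRα than in control cells is therefore not established at the threshold used here. Over all arrays 0.76% of genes differed more between the lines in this response. Without GRα vehicle replicate B, the lowest GRα array for BCL2L1, the difference was 0.40 (limma adjusted p = 0.285).

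The line difference of BCL2L1 held in each treatment. GRα exceeded control cells by 0.87 ± 0.08 SE under dexamethasone (1.83-fold, limma adjusted p = 1.52e-07), by 0.55 ± 0.09 under RU486 (adjusted p = 0.000137) and by 0.38 ± 0.08 in vehicle (1.3-fold, adjusted p = 0.0014), or by 0.47 without GRα vehicle replicate B. All 3 calls held with every array of their groups left out in turn. RU486 itself moved BCL2L1 by 0.06 in GRα cells (95% interval -0.13 to 0.25), or by -0.04 without GRα vehicle replicate B, and by -0.11 in control cells (-0.28 to 0.06).

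BCL2, the founding survival gene of the family, went the other way between the lines. It read 6.47, 6.49 and 6.60 in GRα cells with dexamethasone, 6.48 and 6.59 with RU486 and 6.58, 6.46 and 6.62 in vehicle, and 6.87, 6.98 and 6.90, then 7.01, 7.01 and 7.04, then 7.06, 7.13 and 6.98 in control cells with the same treatments. The highest of the 8 GRα arrays lay below the lowest of the 9 control arrays. BCL2 was lower in GRα cells with a log2 fold change of -0.40 ± 0.06 SE under dexamethasone (limma adjusted p = 9.83e-05), -0.49 ± 0.07 under RU486 (adjusted p = 4.52e-05) and -0.50 ± 0.06 in vehicle (1.42-fold, adjusted p = 7.71e-06). These calls held with each array of their groups left out in turn.

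Neither ligand called BCL2 in either line. In GRα cells dexamethasone minus vehicle was -0.03 (95% interval -0.17 to 0.10). In control cells it was -0.14 ± 0.06 SE, with the 3 dexamethasone arrays below the 3 vehicle arrays, but the limma adjusted p was 0.998 (unadjusted 0.0453), and 7.7% of all genes lay lower without overlap in that comparison. Thus, between the lines, the RNAs of these 2 survival genes lay in opposite directions in all 3 treatments.

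MCL1, a survival protein with a short life whose RNA also turns over fast, was not called between the lines in any treatment. It read 10.01, 10.03 and 9.93 in GRα cells with dexamethasone, 10.11 and 10.06 with RU486 and 10.12, 10.37 and 10.15 in vehicle, against 10.07 to 10.19 over all 9 control arrays. The 3 GRα dexamethasone arrays were below the other GRα and control arrays. MCL1 in GRα cells was lower with dexamethasone than with vehicle by -0.23 ± 0.07 SE, which did not pass the threshold (limma adjusted p = 0.104, unadjusted 0.00365), and 9.13% of all genes lay lower without overlap in that comparison. With a trend and robust variance prior it passed (adjusted p = 0.0244), and without GRα vehicle replicate B, the highest array, the difference was -0.15 (adjusted p = 0.275).

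**Figure D2:**
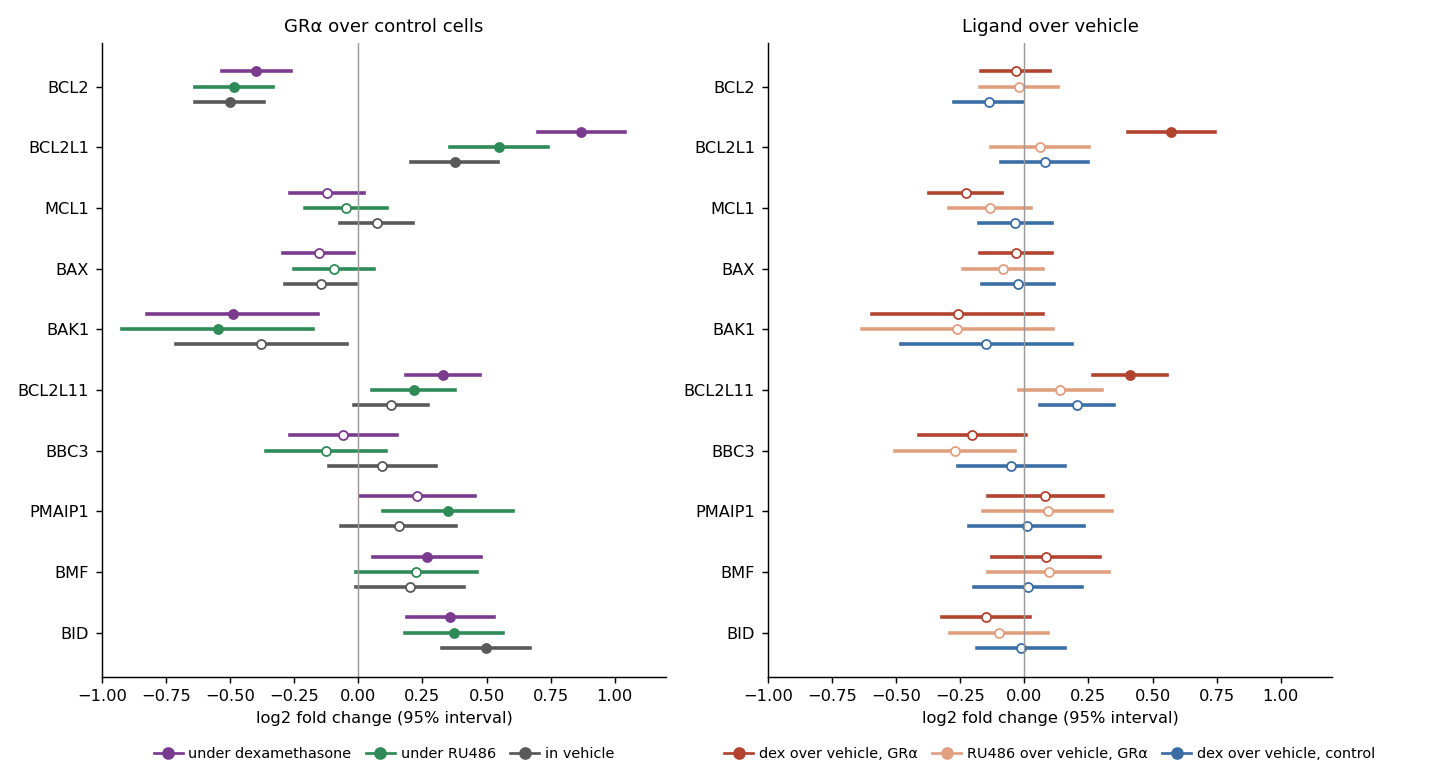
Log2 fold change (x axis) with its 95% interval for each of the 10 genes (y axis), GRα over control cells on the left and ligand over vehicle on the right; filled points have a limma adjusted p under 0.05 over all genes. On the right BCL2L1 (0.57) and BCL2L11 (0.41) with dexamethasone in GRα cells are filled, and on the left BCL2 lies below 0 and BCL2L1 and BID above 0 in all 3 treatments.

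The pore formers did not respond to either ligand past the threshold. BAX spanned 8.10 to 8.27 over the 8 GRα arrays (median 8.22) and 8.23 to 8.49 over the 9 control arrays (median 8.32). The lines thus overlapped over all treatments, but within each treatment the GRα arrays lay below the control arrays. GRα minus control was -0.15 under dexamethasone (limma adjusted p = 0.0835, unadjusted 0.0313), -0.10 under RU486 (adjusted p = 0.394, unadjusted 0.214) and -0.15 in vehicle (adjusted p = 0.101, unadjusted 0.0405). With array weights the difference under dexamethasone was -0.18 and was called (limma adjusted p = 0.0232). Dexamethasone minus vehicle was -0.03 in GRα cells (95% interval -0.17 to 0.11) and -0.02 in control cells (-0.16 to 0.12).

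BAK1 was lower in 7 of the 8 GRα arrays, and the eighth is the array that stood apart. It read 7.77, 7.79 and 7.79 in GRα cells with dexamethasone, 7.76 and 7.80 with RU486 and 7.71, 8.64 and 7.78 in vehicle. Control cells had 8.25, 8.26 and 8.31 with dexamethasone, 8.43, 8.19 and 8.37 with RU486 and 8.45, 8.44 and 8.37 in vehicle. GRα vehicle replicate B, at 8.64, was thus above every control array, while the other 7 GRα arrays were all below every control array.

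For BAK1 in vehicle GRα minus control was -0.38 ± 0.16 SE and was not called (limma adjusted p = 0.0758), and without GRα vehicle replicate B it was -0.68 (adjusted p = 8.82e-07). Under dexamethasone it was -0.49 ± 0.16 (adjusted p = 0.0229) and under RU486 -0.55 ± 0.18 (adjusted p = 0.0258), with no overlap of arrays in either. The spread of replicate B enters the errors of both: leaving out an array of the groups compared lost the call for 5 of 6 arrays under dexamethasone (adjusted p up to 0.0657) and 4 of 5 under RU486 (up to 0.12), whereas leaving out replicate B gave adjusted p-values of 6.59e-06 and 8.25e-06. Dexamethasone minus vehicle in GRα cells also turned on that array, -0.26 with it (adjusted p = 0.455) and 0.04 without it (adjusted p = 0.881), as did RU486 minus vehicle, -0.26 with it and 0.04 without it.

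Among the BH3-only genes, BCL2L11 was the one that dexamethasone called. Its log2 signal was 7.29, 7.40 and 7.39 in GRα cells with dexamethasone, 7.15 and 7.02 with RU486 and 6.97, 6.86 and 7.01 in vehicle. In control cells it was 7.10, 7.09 and 6.90 with dexamethasone, 6.91, 6.88 and 6.82 with RU486 and 6.85, 6.80 and 6.81 in vehicle. The GRα dexamethasone arrays lay above all others, and the dexamethasone arrays lay above the vehicle arrays in control cells too.

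BCL2L11 rose 1.33-fold with dexamethasone in GRα cells, to 7.36 ± 0.06 against 6.95 ± 0.08 in vehicle (SD, n = 3 each; log2 fold change 0.41 ± 0.07 SE, limma adjusted p = 0.00241), and 1.37% of all genes moved further. The call held without each of the 6 arrays in turn (adjusted p up to 0.0182) but not when the fit held these 2 groups alone (adjusted p = 0.0884). In control cells the same difference was 0.21 ± 0.07, to 7.03 ± 0.12 against 6.82 ± 0.02 (SD, n = 3 each), which was not called (limma adjusted p = 0.565, unadjusted 0.00773). The difference between the lines in this response was 0.21 ± 0.10 (95% interval 0.00 to 0.41, adjusted p = 0.672), so a larger response in GRα cells was not shown. Dexamethasone minus RU486 was 0.27 ± 0.08 in GRα cells (adjusted p = 0.148) and 0.16 in control cells (adjusted p = 0.756).

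Between the lines BCL2L11 was higher in GRα cells by 0.33 ± 0.07 SE under dexamethasone (limma adjusted p = 0.000952), a call that held without each array of the 2 groups in turn. Under RU486 the difference was 0.22 ± 0.08 (adjusted p = 0.0416), and leaving out any one of the 5 arrays compared lost the call (adjusted p 0.0502 to 0.313). In vehicle it was 0.13 (adjusted p = 0.175).

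BCL2L1 and BCL2L11 varied together over the arrays. After each line's mean was taken off, their Pearson correlation over the 17 arrays was 0.881, and 0.844 without GRα vehicle replicate B. The arrays share lines and treatments, and the dexamethasone groups carry much of this, so the correlation describes the set and is not a test. BCL2L1 and MCL1 went opposite ways (-0.782, and -0.703 without replicate B). MCL1 and BID (0.841), BAK1 and BID (0.82) and MCL1 and BAK1 (0.75) correlated over all arrays, but without replicate B these values were 0.481, -0.07 and -0.05.

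Because these 2 genes rose with dexamethasone in GRα cells, the stretches before their starts are shown, as RefSeq gives them on GRCh38.p14. Each holds the 250 bases upstream of a start and the first transcribed base, 5′ to 3′ on the strand of the gene. BCL2L1 has 2 such starts, at chr20:31723963-31724213 (minus strand, the upstream start) and chr20:31722868-31723118 (minus strand), and BCL2L11 has 1, at chr2:111120664-111120914 (plus strand). Capitals mark the GC box GGGCGG, bound by SP1-type factors, and the forkhead motif GTAAACA, bound by FOXO factors, each on either strand.
BCL2L1 upstream start: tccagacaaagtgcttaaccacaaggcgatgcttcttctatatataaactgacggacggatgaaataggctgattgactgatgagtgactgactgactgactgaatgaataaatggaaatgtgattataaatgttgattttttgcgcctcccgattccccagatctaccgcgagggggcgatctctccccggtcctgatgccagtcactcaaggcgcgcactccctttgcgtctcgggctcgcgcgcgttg
BCL2L1 downstream start: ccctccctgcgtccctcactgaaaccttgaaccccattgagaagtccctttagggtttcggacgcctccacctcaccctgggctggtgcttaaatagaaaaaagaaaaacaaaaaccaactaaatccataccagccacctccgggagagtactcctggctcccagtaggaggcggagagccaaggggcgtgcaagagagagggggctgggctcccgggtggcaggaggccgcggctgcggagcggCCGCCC
BCL2L11: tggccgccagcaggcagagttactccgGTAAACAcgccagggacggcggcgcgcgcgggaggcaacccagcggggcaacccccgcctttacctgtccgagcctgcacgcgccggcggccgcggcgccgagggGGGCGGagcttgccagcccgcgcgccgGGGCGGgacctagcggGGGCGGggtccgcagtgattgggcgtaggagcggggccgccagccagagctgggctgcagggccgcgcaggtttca

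The glucocorticoid receptor monomer site AGAACA and its palindrome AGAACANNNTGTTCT were also searched on both strands, over windows of 300 bases (250 before a start and 50 after). Of the 10 members, 9 had such windows, 15 in all, with none held for MCL1. The monomer site was in 0 of the 15, against 14.8% of 35116 windows of all genes, and the palindrome in 0 against 1 of 35116. The GC box was in 10 of 15 windows, of 7 of the 9 genes, against 45.0% of all windows, and the forkhead motif in 1 of 15, that of BCL2L11, beginning 223 bases before the start, against 3.42%. The GC box and forkhead motifs were chosen after the sequences had been seen. These matches describe letters in short windows and do not show binding, and the palindrome contains the monomer site.

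The other BH3-only genes were not called for either ligand. BID, which caspase 8 cuts to link death receptors to mitochondria, read 7.88, 7.93 and 7.75 in GRα cells with dexamethasone, 7.95 and 7.87 with RU486 and 7.88, 8.24 and 7.89 in vehicle, against 7.46 to 7.56 over all 9 control arrays. Every GRα array lay above every control array, and GRα vehicle replicate B was the highest. BID was higher in GRα cells by 0.36 ± 0.08 SE under dexamethasone (limma adjusted p = 0.00203), 0.37 ± 0.09 under RU486 (adjusted p = 0.00441) and 0.50 ± 0.08 in vehicle (1.41-fold, adjusted p = 0.000107). Without replicate B the vehicle difference was 0.38 (adjusted p = 0.000127), and without GRα RU486 replicate B the RU486 call was lost (adjusted p = 0.0553).

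BMF, which is held on the actin motor complex until it is released, read 6.48, 6.26 and 6.70 in GRα cells with dexamethasone, 6.41 and 6.57 with RU486 and 6.50, 6.27 and 6.40 in vehicle, against 6.04 to 6.31 over the 9 control arrays. Most GRα arrays were above the controls, but 2 of the 8 lay within their range. GRα minus control was 0.27 ± 0.10 SE under dexamethasone, called at a limma adjusted p of 0.0465, and this was lost without 5 of the 6 arrays compared, with adjusted p = 0.256 without GRα dexamethasone replicate C. It was 0.23 under RU486 (adjusted p = 0.148) and 0.20 in vehicle (adjusted p = 0.139).

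PMAIP1, a p53 target whose product binds MCL1, had a low signal, whose distance from background was not tested. It read 4.81, 5.00 and 5.15 in GRα cells with dexamethasone, 5.09 and 4.90 with RU486 and 4.96, 4.72 and 5.04 in vehicle, against 4.56 to 4.91 over the 9 control arrays. The lines overlapped. Under RU486 GRα exceeded control cells by 0.35 ± 0.12 SE (limma adjusted p = 0.0353), which was lost without 4 of the 5 arrays compared (adjusted p = 0.269 without GRα RU486 replicate B), and the differences under dexamethasone (0.23, adjusted p = 0.113) and in vehicle (0.16, adjusted p = 0.289) were not called. The vehicle difference was 0.25 without GRα vehicle replicate B and 0.06 without control vehicle replicate A, not called in either.

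BBC3, a p53 target like PMAIP1, spanned 6.64 to 7.06 over the 8 GRα arrays (median 6.89). It spanned 6.69 to 7.06 over the 9 control arrays (median 6.85), so the lines overlapped. Its largest ligand difference was with RU486 in GRα cells, 6.75 and 6.72 against 7.06, 7.03 and 6.94 in vehicle. The RU486 arrays lay below the vehicle arrays, as did 11.9% of all genes, and the difference of -0.27 ± 0.11 SE was not called (limma adjusted p = 0.553, unadjusted 0.0255). With dexamethasone it was -0.20 (adjusted p = 0.342).

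The genes around the family were read from lists of 64 measured genes. None of the 64 was called for dexamethasone in GRα cells, where 2.02% of all genes were, for dexamethasone in control cells (0.261% of all genes) or for RU486 in either line (0%), so these zeros are close to the background. Between the lines in vehicle, genes of every list were called, and every count below stands against 33.4% of all genes called (15% higher, 18.3% lower). Of 11 death receptor genes measured, 5 were higher and 0 lower in GRα cells in vehicle, and the list had a median log2 fold change of 0.09 against 0.01 over all genes. FAS, a death receptor, averaged 7.67 in GRα and 6.88 in control cells, and the TRAIL receptor genes TNFRSF10A and TNFRSF10B were higher by 0.89 ± 0.10 SE and 0.81 ± 0.08. CASP8, the initiator caspase they recruit, which cuts BID, was higher by 0.56 ± 0.06, and CFLAR, which restrains it, by 0.67 ± 0.06. Without GRα vehicle replicate B 5 were higher and 2 lower, TNFSF10 and FADD being added, against 34.2% of all genes. Under dexamethasone 6 of 11 were higher and 1 lower, against 33.3% of all genes called, and under RU486 5 were higher and 1 lower, against 29.2%, the lower one being TNFSF10, the TRAIL ligand, at -0.42 ± 0.12 and -0.52 ± 0.13.

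Of 12 other family members, 6 were higher and 3 lower in GRα cells in vehicle, against 33.4% of all genes called, and 4 and 3 without GRα vehicle replicate B. The mitophagy receptor gene BCL2L13 was higher by 0.79 ± 0.09 SE and BNIP3L, also a mitophagy receptor gene, lower (-0.68 ± 0.09). BCL2L15 (0.62 ± 0.13), the survival relatives BCL2A1 (0.52 ± 0.18) and BCL2L10 (0.50 ± 0.11) and the BH3-only gene BIK (0.38 ± 0.08) were also higher. Without that replicate BCL2A1 was at 0.26 and no longer called (adjusted p = 0.176). Under dexamethasone 3 of 12 were higher and 3 lower (33.3% of all genes called), and under RU486 4 and 3 (29.2%). The 3 higher under dexamethasone were BCL2L13, BCL2L15 and BIK, so BCL2A1 and BCL2L10 were not called higher there. Of 13 caspases and their regulators, 0 were higher and 4 lower in vehicle, a share close to the 33.4% of all genes, among them the apoptosome genes APAF1 (-0.27 ± 0.05) and CASP9 (-0.29 ± 0.07) and the caspase inhibitor gene BIRC6 (-0.39 ± 0.07). In vehicle the median was 0.18 for the other family members and -0.16 for the caspases and their regulators. The caspase counts were 0 higher and 5 lower in vehicle without GRα vehicle replicate B, 1 and 4 under dexamethasone and 0 and 5 under RU486.

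Among 13 known regulators of family genes, 3 were higher and 3 lower in vehicle, against 33.4% of all genes called. NFKB1, a subunit of NF-κB, which drives BCL2L1 and BCL2A1 in immune cells, was the lowest at -1.01 ± 0.09 SE, averaging 6.39 in GRα and 7.40 in control cells, and RELA was at -0.24 ± 0.06. STAT5A, which drives BCL2L1 in blood cells, was higher by 0.65 ± 0.10 and RUNX1 by 0.62 ± 0.08. DDIT3 was lower (-0.36 ± 0.10) and ATF4 higher (0.27 ± 0.06), both called too. Of 9 p53 targets 2 were higher and 1 lower, which is the background share, with CDKN1A at 0.29 ± 0.10, AEN at 0.36 ± 0.08 and RRM2B at -0.88 ± 0.07. Without GRα vehicle replicate B CDKN1A was at 0.17 and no longer called (adjusted p = 0.134). Of 6 genes for protein stability and docking 1 was higher and 2 lower, against the same 33.4%, the lower ones including USP9X, which spares MCL1 from breakdown, at -0.27 ± 0.07. Without that replicate the counts higher and lower were 3 and 4 for the regulators, 1 and 2 for the p53 targets and 1 and 2 for the stability genes. Medians in vehicle were -0.10 for the regulators, nearer 0 without it, 0.09 for the p53 targets and -0.14 for the stability genes. Under dexamethasone the regulators gave 3 higher and 4 lower, the p53 targets 1 and 1 and the stability genes 0 and 2, against 33.3% of all genes, and under RU486 these were 3 and 3, 0 and 2, and 0 and 2, against 29.2%.

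**Figure D3:**
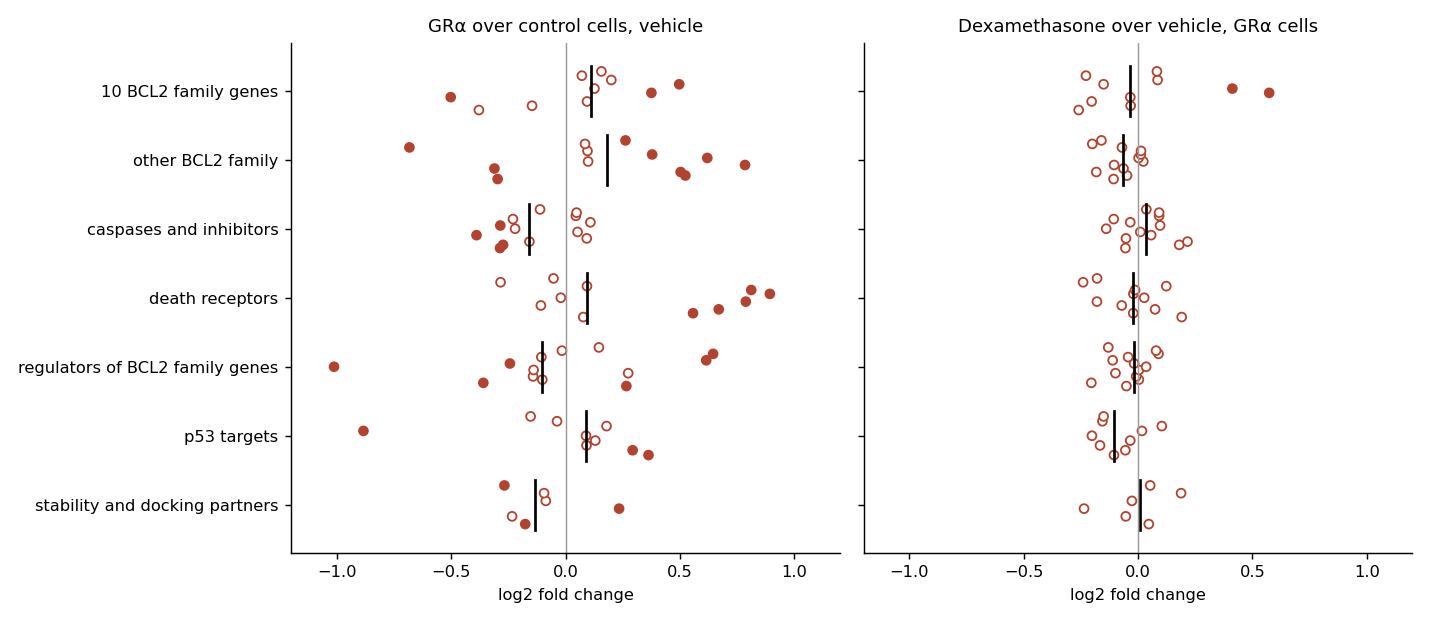
Log2 fold change (x axis) of every measured gene in the 10 family genes and 6 lists around them (y axis), GRα over control cells in vehicle on the left and dexamethasone over vehicle in GRα cells on the right; filled points have a limma adjusted p under 0.05 over all genes and black bars are list medians. On the right BCL2L1 and BCL2L11 are the only filled points, and on the left the 5 death receptor genes called higher lie between 0.56 and 0.89.

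The genes whose pattern over the arrays was most like that of BCL2L1, by Pearson correlation after each line's mean was taken off (17 arrays), were KIAA1549 (0.965), TMEM164 (0.945), SLC23A2 (0.939), EPHA4 (0.935) and SESN3 (0.934). All 5 were called higher with dexamethasone in GRα cells, by 0.54, 0.45, 0.31, 0.87 and 0.48 on the log2 scale in that order, and none in control cells, where the values were 0.15, 0.19, 0.07, 0.19 and 0.02. SLC23A2 encodes a vitamin C transporter, EPHA4 an ephrin receptor and SESN3 a stress-response protein. The 5 genes were picked for likeness over these arrays, so their calls are a description. Without GRα vehicle replicate B their correlations with BCL2L1 were 0.960, 0.933, 0.920, 0.914 and 0.909 in the same order. For BCL2, the member with the largest difference between the lines in vehicle (without GRα vehicle replicate B BAK1 and BCL2L1 differed more), the nearest were ACTR5 (0.834), OR8H2 (0.803), MAPK13 (0.787), SEPTIN12 (0.782) and PALD1 (0.775), with none called for dexamethasone in either line.

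**Figure D4:**
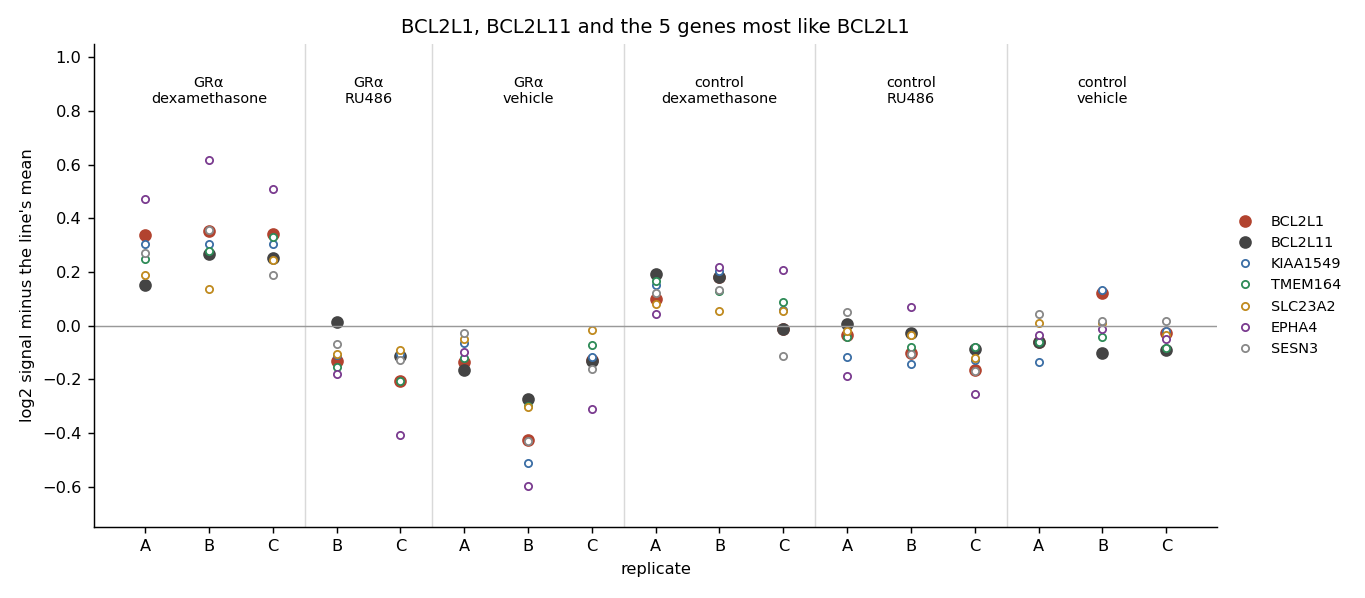
Log2 signal minus the mean of the array's line (y axis) in each array, by group and replicate (x axis), for BCL2L1, BCL2L11 and the 5 genes most like BCL2L1. All 7 genes lie above 0 in the 3 GRα dexamethasone arrays, and all 7 are at their lowest in GRα vehicle replicate B.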

How the data were processed

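RNA of H295R cells was measured on 18 arrays, of which 17 have values; GRα RU486 replicate A is empty, and the labels give a failed quality check. The authors deposited log2 values for 29153 probe sets (range 2.07 to 14.15, array medians 6.28 to 6.35). The submitters' processing notes name RMA, a background correction with quantile normalization and probe summary, and limma. For neither are versions or a build given in the sources. Quantile normalization would hide a one-way shift of most RNAs, and the number of arrays limits precision.

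Probe sets with 1 symbol (19460, with 1754 more carrying several symbols and 7939 none) were named from the platform annotation, 19429 of them updated by Entrez number. For 769 genes with several probe sets the brightest was used, which left 18417 genes. One limma fit (version 3.58.1, R 4.3.3) over 17 arrays with a mean per group gave 11 contrasts, two-sided, with 11 residual and 5.89 prior degrees of freedom and Benjamini-Hochberg adjustment over all genes. It was also run on simulated arrays with independent noise and the same mean in every group, except for some genes changed in the GRα dexamethasone group. That simulation had no other difference between the lines and no array that stood apart, so it does not cover those features of the data. All 10 members are named, up to 6 called genes of each list, and the 5 genes most like 2 members. Alternatives were leaving out each array, a replicate block, median centring, dropping dim genes, trend and robust priors, array weights, all probe sets, only the groups compared, and a stricter threshold. List counts without GRα vehicle replicate B were added after seeing the data. Members, lists and tests were chosen with earlier results of these data known.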

Additional observations from a re-analysis of the deposited data

How the results depend on the processing

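Of the members called, BCL2L1 and BCL2L11 with dexamethasone in GRα cells, and BCL2L1 and BCL2 between the lines in all 3 treatments, stayed called with each array of their comparison left out. So did BID between the lines in vehicle and under dexamethasone, and BCL2L11 between the lines under dexamethasone. No called member changed sign in any alternative run. The count of members called between the lines under RU486 (6) ranged from 2 to 6 with 1 array left out, and a threshold of 0.01 gave 3. Over all genes the 5386 calls there were 3881 to 6158 with 1 array left out and 3737 at 0.01. The count for dexamethasone in GRα cells (2) was 1 with only the groups compared and 3 with trend and robust priors, and that for dexamethasone against RU486 in GRα cells (1) ranged from 0 to 1 with 1 array left out. Between the lines under dexamethasone (6) it ranged from 4 to 6, and with array weights was 7. Over all genes the 6132 calls there were 5289 to 6862 with 1 array left out and 7149 with array weights. Deviations of same-letter replicates from their group means correlated at -0.209 to 0.324 over all genes. The highest value was for replicate A of control cells, dexamethasone with vehicle, where B gave 0.147 and C -0.02. With 2 or 3 arrays a group these values cannot settle whether the letters pair the arrays. A replicate block gave 3, 6 and 5 members called between the lines in vehicle, under dexamethasone and under RU486, where PMAIP1 had an adjusted p of 0.0695, and 2 for dexamethasone in GRα cells. With the block 5967, 5987 and 5099 of all genes were called between the lines, against 6144, 6132 and 5386 without it. Over all genes, the 372 calls for dexamethasone in GRα cells were 200 to 601 with 1 array left out, 311 with the replicate block, 496 with trend and robust priors, 77 with only the groups compared and 171 at 0.01. The 48 in control cells were 17 to 82, 74 with trend and robust priors, 148 with array weights, 23 with only the groups compared and 16 at 0.01. Dexamethasone against RU486 gave 165 in GRα cells (67 to 259, 54 with only the groups compared, 83 at 0.01) and 67 in control cells (29 to 113, 107 with trend and robust priors, 214 with array weights, 37 at 0.01). The line difference in the dexamethasone effect gave 12 (6 to 15, 19 with trend and robust priors, 22 with array weights, 8 with the replicate block, 5 with only the groups compared and 5 at 0.01), and RU486 in GRα cells gave 0, or 1 without RU486 replicate B. The causes were not tested.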
